A study of Mus musculus with 2 samples.

Results

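The integrated stress response effectors described here are 10 genes out of the 27998 in the deposited gene list: Atf4, Atf5, Ddit3, Trib3, Chac1, Sesn2, Stc2, Nupr1, Ppp1r15a and Cebpg. They were named as a set with knowledge of earlier results from these same cells, so they were selected on measured values, and their levels are given as a description. Single-cell RNA was profiled in LSK cells, a sorted population of bone marrow (Lin- Sca-1+ c-Kit+) in which blood stem and progenitor cells are enriched, from 3-month-old mice. The study asked how loss of Trmt6, a subunit of the enzyme that writes the m1A mark on tRNA, alters these cells. There was 1 library of Trmt6 WT cells, labelled Trmt6fl/fl, and 1 library of Trmt6 cKO cells, labelled Trmt6fl/fl, MX1-cre. The Mx1 promoter drives the recombinase upon interferon signalling and acts in marrow and in other interferon-responsive tissues. A figure legend of the study describes Mx1-Cre and injections of pIpC, an inducer of interferon, in both genotypes, whereas the label of the WT library names no recombinase. Genotype and library cannot be told apart, no difference below has a replicate check, and all intervals are 95% intervals for counting error only.

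In the integrated stress response, kinases that sense amino acid shortage, unfolded protein, heme deficiency or double-stranded RNA phosphorylate the translation initiation factor eIF2. General initiation then slows, while the mRNA of the transcription factor ATF4 is translated more efficiently through its upstream reading frames. ATF4 and its partners switch on genes for amino acid supply, for further transcription factors and for proteins that close the loop. Blood stem cells are known for low rates of protein synthesis and for active ATF4. Only mRNA was measured here, so neither eIF2 phosphorylation nor ATF4 protein is covered.

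After filtering, 8148 WT cells with 41738854 UMIs (counted molecules) and 8477 cKO cells with 87182940 UMIs were kept. The median kept cell had 4146 UMIs in WT and 10044 in cKO, so shares of cells were taken at a fixed 2000 UMIs drawn from each cell (thinned cells), leaving 7945 WT and 8372 cKO cells and dropping 203 and 105 shallower ones. The libraries shared 24 barcodes. Trmt6 stood at 63.5 CPM (UMIs of a gene per 1000000 UMIs) in WT and 50.1 CPM in cKO, with a log2 ratio of -0.34, and the sources used here do not give the deleted part relative to the 3′ tags, so this level does not check the genotype. The sort markers were present in both libraries, with Kit at 63.9 and 21.6 CPM and Ly6a, which encodes Sca-1, at 34.3 and 142 CPM in WT against cKO.

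Stretches of 3 promoters are shown because each holds a match to a searched motif upstream of the start site. The composite element TGATGNAA, bound by pairs of ATF4 and C/EBP factors, was searched on both strands between 250 bases upstream and 50 bases downstream of each RefSeq start (GRCm38.p6). The 10 genes had 11 such windows. It was found in 1304 of 32851 promoter windows (3.97%) and in 3 of the 11 windows of the effectors, those of Chac1, Nupr1 and Trib3. The match of Trib3 lay after the start site and is not printed. The cyclic AMP response element TGACGTCA was found in 588 windows (1.79%) and, among the effectors, in Ppp1r15a alone. The 2 searches overlapped in no window of an effector. Capitals mark the match, on the strand of the gene, at chr2:119351009-119351096 (+), chr7:126625533-126625620 (-) and chr7:45526269-45526320 (-), each read 5′ to 3′.
Chac1: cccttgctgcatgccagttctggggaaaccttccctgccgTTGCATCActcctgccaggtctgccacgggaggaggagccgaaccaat
Nupr1: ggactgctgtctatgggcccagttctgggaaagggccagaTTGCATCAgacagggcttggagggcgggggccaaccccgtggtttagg
Ppp1r15a: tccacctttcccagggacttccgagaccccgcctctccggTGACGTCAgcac
The matches of Chac1 and Nupr1 have the same letters, on the strand opposite to TGATGNAA. A match is a description of these letters and says nothing of binding.

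Over all kept cells, 9 of the 10 effectors were at least 2-fold higher in the cKO library, and Ppp1r15a was lower. Of all genes, 9153 reached 5 CPM in at least 1 library, and of these 266 (2.91%) were at least 2-fold higher and 482 (5.27%) at least 2-fold lower. Because the set was chosen with these differences known, nothing is read from that contrast. The median log2 ratio of the effectors was 3.69, against -0.07 for the 9153 genes. UMIs were counted at the 3′ end, so levels are compared between libraries and not between genes.

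Atf4 (chromosome 15, 80255184 to 80257541, GRCm38, coordinates of GENCODE M21) encodes the central transcription factor of the response. Its mRNA stood at 66.8 CPM (64.4 to 69.4) in WT against 216 CPM (213 to 219) in cKO, with a log2 ratio of 1.69 (1.63 to 1.75). That ratio was 1.58 on thinned cells, 1.54 with each cell scaled before averaging and 1.51 over cells called G1. A UMI of Atf4 was found in 12.5% of thinned WT cells (11.8 to 13.2) and in 32.4% of thinned cKO cells (31.4 to 33.4). Atf4 was thus the most widely detected effector in WT after Ppp1r15a, and its ratio ranked 102 among the 9153 genes.

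The other leucine zipper factors differed widely in how far the libraries lay apart. Atf5 (chromosome 7, 44812256 to 44816658), a relative of Atf4 whose mRNA is also translated upon eIF2 phosphorylation, stood at 3.02 CPM in WT against 87.2 CPM in cKO, with a log2 ratio of 4.85 (4.60 to 5.12). The log2 ratio of Atf5 was 4.56 on thinned cells, 4.55 with each cell scaled before averaging and 4.71 over cells called G1. Thinned cells with a UMI of Atf5 were 0.717% of WT and 14.9% of cKO. Ddit3 (chromosome 10, 127290774 to 127296288) encodes CHOP, a factor linked to cell death under prolonged stress. It stood at 22.8 CPM in WT against 96.9 CPM in cKO, with a log2 ratio of 2.09 (1.99 to 2.19), with 4.81% and 14.5% of thinned cells. The log2 ratio of Ddit3 was lower on thinned cells (1.73, 1.57 to 1.90), with each cell scaled before averaging (1.62) and over cells called G1 (1.61). Cebpg (chromosome 7, 35046422 to 35056573), which encodes the C/EBP partner of ATF4, was the closest to the fold limit, at 40.3 and 84.0 CPM and a log2 ratio of 1.06 (0.98 to 1.14). It was found in 8.07% of WT and 15.2% of cKO thinned cells, and its log2 ratio was 0.90 when each cell was scaled before averaging, 0.97 over cells called G1 and 0.94 (0.80 to 1.07) on thinned cells, which puts it below 2-fold in those settings.

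Trib3 (chromosome 2, 152337422 to 152344032) encodes a pseudokinase that binds ATF4 and CHOP and dampens their activity. It was among the effectors nearly absent from WT, with 94 UMIs in WT and 13853 in cKO, or 2.25 and 159 CPM. Its log2 ratio was 6.13 (5.85 to 6.45), and thinned cells with a UMI were 0.629% of WT and 22.9% of cKO. The log2 ratio of Trib3 was lower on thinned cells (5.49), with each cell scaled before averaging (5.28) and over cells called G1 (5.10).

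Chac1 (chromosome 2, 119351229 to 119354381), which encodes an enzyme that degrades glutathione, and Stc2 (chromosome 11, 31357307 to 31370074), which encodes a secreted glycoprotein, were the rarest effectors in WT. Each had 7 UMIs in the 8148 WT cells, a level of 0.168 CPM (0.0674 to 0.346). In cKO, Chac1 had 1651 UMIs (18.9 CPM) and Stc2 1681 UMIs (19.3 CPM). The log2 ratios were 6.72 (5.77 to 8.14) for Chac1 and 6.75 (5.80 to 8.16) for Stc2, and their widths follow from the few WT counts. After thinning, Chac1 was found in 2 WT cells and 285 cKO cells, and Stc2 in 1 WT cell and 271 cKO cells.

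Sesn2 (chromosome 4, 132492032 to 132510501) encodes a leucine sensor that restrains mTORC1, and it is a target of p53 as well as of ATF4. It stood at 2.25 CPM in WT against 24.3 CPM in cKO, with a log2 ratio of 3.42 (3.13 to 3.74), and was found in 0.579% and 4.23% of thinned cells. The log2 ratio of Sesn2 was 2.93 on thinned cells, and 3.03 both with each cell scaled before averaging and over cells called G1. Nupr1 (chromosome 7, 126623249 to 126630861) encodes a small chromatin protein that is induced by stress. It stood at 16.1 CPM in WT against 250.04 CPM in cKO, with a log2 ratio of 3.96 (3.85 to 4.07), and its share of thinned cells was 2.96% in WT and 33.2% in cKO, where Nupr1 and Atf4 were the most widely detected. Over cells called G1 the log2 ratio of Nupr1 was 3.28, with each cell scaled before averaging 3.43, and on thinned cells 3.49.

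Ppp1r15a (chromosome 7, 45522916 to 45526268) encodes GADD34, the inducible subunit that brings a phosphatase to eIF2 and closes the loop. It was the effector with the highest share of cells in WT and the one effector that was lower in cKO. Its level was 107 CPM (104 to 111) in WT against 58.7 CPM (57.1 to 60.3) in cKO, with a log2 ratio of -0.87 (-0.93 to -0.81), which is less than 2-fold. It passed 2-fold on thinned cells (-1.16, -1.27 to -1.05), with each cell scaled before averaging (-1.08) and over cells called G1 (-1.21). Thinned cells with a UMI were 20.7% of WT (19.9 to 21.7) and 11.3% of cKO (10.7 to 12.05). Without thinning the shares were 35.7% and 40.8%, an order that goes against the level and moves with the depth of the libraries.

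**Figure D1:**
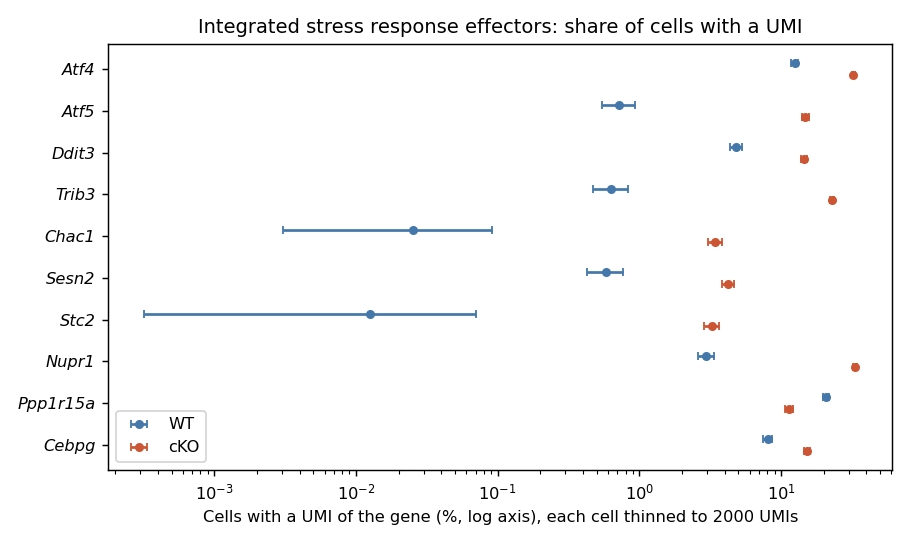
Share of thinned cells with a UMI of each effector (x axis, percent, log axis) in WT (blue) and cKO (red), with 95% Clopper-Pearson intervals. The cKO point lies to the right for 9 genes and to the left for Ppp1r15a (20.7% in WT, 11.3% in cKO), and the lowest points are the WT shares of Stc2 and Chac1.

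Counts within positive cells lay near the floor of 1 that detection sets, so they say little of levels in expressing cells. Among thinned cells with a UMI of Trib3, the mean was 1.02 UMIs in WT and 1.27 in cKO. For Nupr1 it was 1.47 in WT and 1.48 in cKO, with up to 7 and 8 UMIs in a cell. For Ppp1r15a it was 1.35 in WT, with up to 13 UMIs in 1 cell, and 1.11 in cKO, with up to 4. At 2000 UMIs per cell a positive cell mostly held 1 molecule, so a cell without a UMI cannot be called a cell without expression.

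Counted together, more effectors were found per cell in cKO than in WT. A thinned WT cell held UMIs of 0.510 effectors on average (SD 0.679 over cells) and a thinned cKO cell of 1.55 (SD 1.27). No effector was found in 58.5% of WT cells (57.4 to 59.6) and in 23.6% of cKO cells (22.7 to 24.5). At least 3 were found in 69 of 7945 WT cells and 1872 of 8372 cKO cells, 0.868% (0.676 to 1.10) and 22.4% (21.5 to 23.3). The most found in 1 cell was 4 in WT and 7 in cKO. Without Ppp1r15a, the shares of cells with at least 3 of the other 9 were 0.164% and 19.5%.

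**Figure D2:**
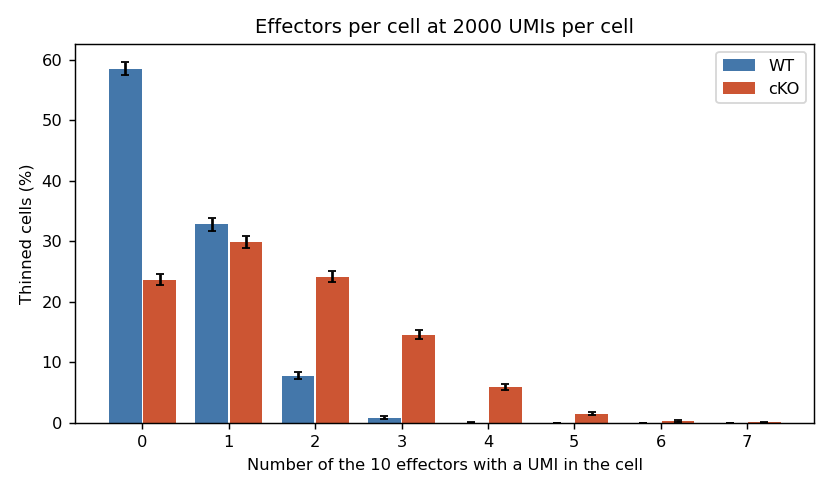
Thinned cells (y axis, percent) by the number of effectors with a UMI (x axis), for WT (blue) and cKO (red), with 95% Clopper-Pearson intervals. WT cells are mostly at 0 (58.5%), and the cKO bars extend to 7, with 22.4% of cells at 3 or more.

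Free RNA in droplets can give UMIs in cells that do not express a gene, and no cell type in this sort is known to lack the effectors. The part of free RNA in the shares of the effectors was not tested. For scale, Mpo, a granule gene of the myeloid lineage, was found in 29.0% of WT cells gated by stem markers (median 2981.5 UMIs before thinning) and in 0.522% of such cKO cells (median 8018 UMIs). These shares also count any cell that expresses Mpo, so nothing is read from their difference. In both libraries the share of cells with Nupr1 differed between gates. It was 8.71% in stem-gated (6.35 to 11.6) and 0.841% in myeloid-gated WT cells (0.550 to 1.23), and 36.9% in stem-gated cKO cells (34.5 to 39.4). Of 61 cKO cells gated by B cell markers (median 7274 UMIs) 0 had a UMI of Nupr1, which allows a share of up to 4.92% when 3 counts are taken as the limit. Trib3 was found in 24.6% of the same 61 cells, close to its share of all thinned cKO cells.

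Within the cKO library the effectors were found in the same cells somewhat more often than the product of their shares gives. Of the 45 pairs, 44 had at least 10 cells by that product, and 42 of them had more cells with both genes than the product, with a median ratio of 1.21. Pairs of genes outside the set were not counted, so nothing particular to the effectors is read from this number. Trib3 was found in 33.3% of cells with a UMI of Ddit3 and in 21.1% of cells without one, a ratio to the product of 1.46. The highest ratios were those of Trib3 with Stc2 (1.53), of Ddit3 with Sesn2 (1.52) and of Trib3 with Sesn2 (1.52). The 2 most widely detected effectors had lower ratios, Atf4 from 1.07 with Ppp1r15a to 1.27 with Trib3, and Nupr1 from 1.03 with Ppp1r15a to 1.25 with Ddit3.

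The 2 pairs at or below the product both held the feedback subunit gene, Ppp1r15a with Chac1 (0.866) and with Sesn2 (0.996). Ppp1r15a was found in 9.82% of cells with Chac1 (6.63 to 13.9) and in 11.4% of cells without, which is within counting error. Its ratios with Ddit3 and with Stc2 were both 1.33. Over cKO cells in no marker gate, 40 of 42 pairs were above the product, with a median of 1.18, and Stc2 with Ppp1r15a had the highest ratio (1.52). In WT, 12 pairs had enough cells, 9 were above the product, and the median ratio was 1.14. The lowest WT ratio was that of Ddit3 with Cebpg (0.519, 16 cells) and the highest that of Trib3 with Ppp1r15a (1.35, 14 cells). All ratios describe cells of 1 library that share its depth and its free RNA.

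**Figure D3:**
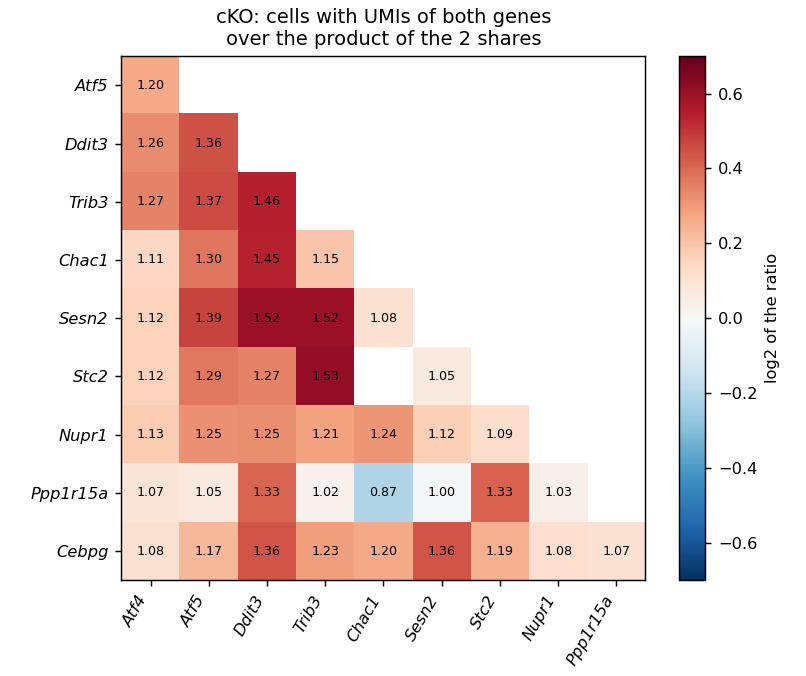
Ratio of cKO cells with UMIs of both genes to the number given by the product of the 2 shares, for each pair of effectors (colour on a log2 scale, ratio printed in the cell). The blank cell of Chac1 with Stc2 had fewer than 10 cells by the product, and the row of Ppp1r15a spans 0.866 to 1.33.

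To see where the effectors were expressed, thinned cells were placed in gates by marker genes, a cell entering a gate with UMIs of at least 3 of its markers and more than of any other list. Gates are ranges, not types: 298 of the 482 WT cells and 994 of the 1532 cKO cells in the stem gate had exactly 3 markers. Several markers differ between the libraries, so nothing is read from gate sizes, and 41.0% of WT and 71.7% of cKO cells entered no gate. In 6 gates, each library had at least 50 cells. Atf4, Atf5, Trib3 and Nupr1 were higher in cKO in 6 of 6 gates, with intervals above 0. Ddit3, Chac1 and Sesn2 were also higher in 6 of 6, with intervals above 0 in 5, 4 and 3 of them. Chac1 had 0 WT UMIs in each of the 6 gates, so it could not be lower in cKO there. Sesn2 had 1 cKO UMI in the megakaryocyte and 1 in the monocyte or dendritic gate. Stc2 and Cebpg were higher in 5 of 6, with intervals above 0 in 2 and 3, and Cebpg had a log2 ratio of -0.12 (-1.78 to 1.39) in the monocyte or dendritic gate. Ppp1r15a was lower in 5 of 6, with intervals below 0. The share of all genes that were higher within each gate was not counted, so nothing is read from the number of effectors.

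Nupr1 differed between gates in both libraries. In WT it stood at 75.7 CPM in the stem gate and 63.8 CPM in the megakaryocyte gate, against 5.66 CPM in the myeloid and 1.94 CPM in the lymphoid gate. In cKO the stem gate stood at 296 CPM, the myeloid gate at 131 CPM and the lymphoid gate at 51.6 CPM, and the megakaryocyte gate had 30 UMIs in 50 cells. Its log2 ratio was accordingly 1.96 (1.62 to 2.33) in the stem gate and 4.52 (3.94 to 5.15) in the myeloid gate.

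Trib3 had its highest WT level in the stem gate, 13.5 CPM from 13 UMIs, and 105 CPM in cKO stem-gated cells, with a log2 ratio of 2.91 (2.16 to 3.88). In the myeloid gate it stood at 2.10 CPM in WT against 138 CPM in cKO, with a log2 ratio of 5.99 (5.18 to 7.002). Within these 6 gates, Atf4 ranged from 152 CPM (erythroid) to 200 CPM (lymphoid) in cKO, where cells in no gate stood at 217 CPM, and from 26.8 CPM (monocyte or dendritic, 6 UMIs) to 78.8 CPM (stem) in WT. Ddit3 was closest between the libraries in the stem gate, at 35.3 CPM in WT against 52.2 CPM in cKO, with a log2 ratio of 0.55 (0.02 to 1.15). Ppp1r15a stood at 189 CPM in WT against 78.3 CPM in cKO in the stem gate, and at 93.8 and 149 CPM in the monocyte or dendritic gate, where the interval of its log2 ratio included 0 (-0.21 to 1.57).

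**Figure D4:**
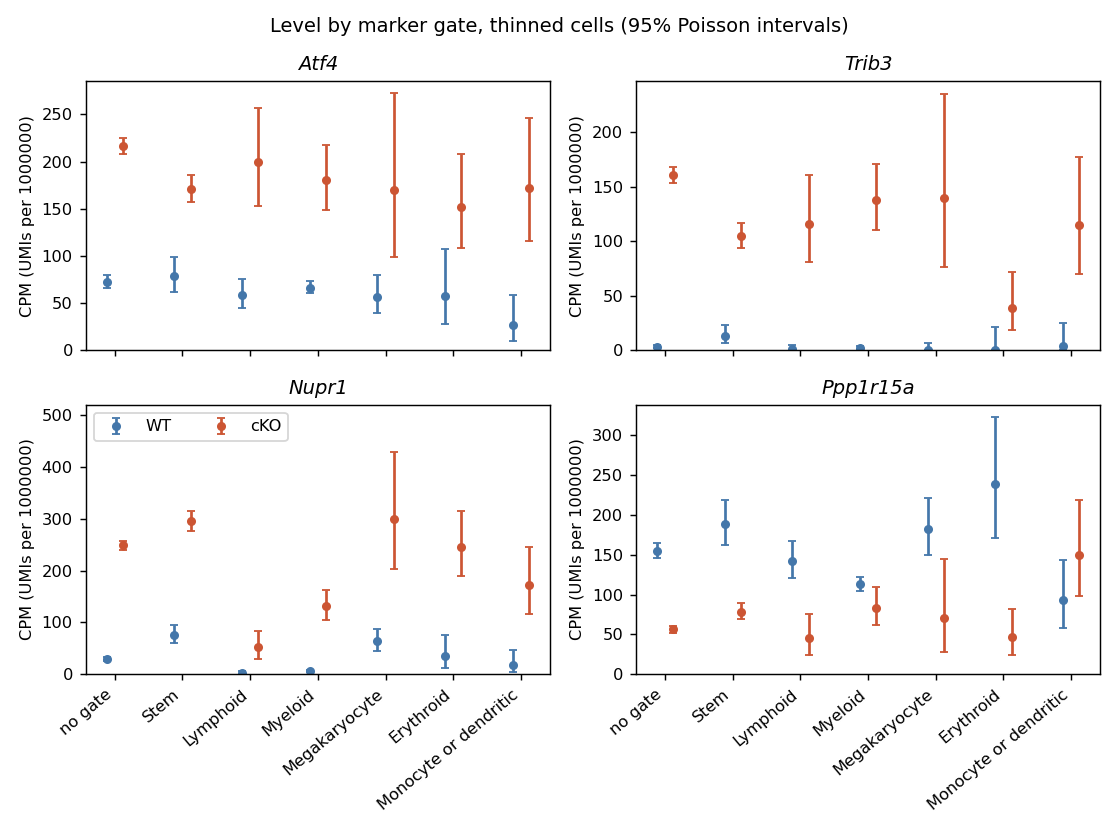
Level of 4 effectors (y axis, CPM in thinned cells) by marker gate (x axis) in WT (blue) and cKO (red), with 95% Poisson intervals. Atf4, Trib3 and Nupr1 are higher in cKO in each gate shown, and Ppp1r15a is higher in WT in all of them but the monocyte or dendritic gate.

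The number of effectors found per cell was set out by called cell cycle phase. WT cells called G1 held 0.632 effectors (SD 0.725 over cells), S cells 0.406 and G2/M cells 0.431. In cKO the means were 1.58 in G1, 1.48 in S and 1.61 in G2/M. Without Ppp1r15a they were 0.357, 0.25 and 0.271 in WT, and 1.44, 1.38 and 1.51 in cKO. Single genes varied by phase in cKO in different directions. Ppp1r15a was highest in G1 in both libraries, at 195 CPM against 97.3 (S) and 102 CPM (G2/M) in WT, and at 82.0 against 51.6 and 51.4 CPM in cKO. Chac1 and Stc2 were highest in cKO cells called S, at 24.4 and 21.7 CPM, and Ddit3 was lowest there, at 71.0 CPM against 83.2 (G1) and 101 CPM (G2/M). The phase calls also read free RNA, whose part was not tested.

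The rest of the pathway was read from lists whose median is set beside that of all genes (-0.07). Upstream, none of the 5 kinases and adaptors at the minimum level was 2-fold higher or lower, with a median log2 ratio of -0.27. Eif2ak1, the heme-regulated kinase, stood at 20.8 CPM in WT against 15.4 CPM in cKO. Eif2ak2, which is induced by interferon and encodes the kinase activated by double-stranded RNA, stood at 24.4 and 20.7 CPM. Eif2ak4, which encodes the amino acid sensor GCN2, stood at 9.75 and 8.13 CPM, and Eif2ak3, which encodes PERK, was below the minimum at 4.17 and 2.51 CPM. Of 16 genes for eIF2, its exchange factor eIF2B, the phosphatase and the further initiation factors Eif2a, Eif2d, Denr and Mcts1, none was 2-fold higher or lower, from Eif2s2 (log2 ratio 0.89) to Ppp1r15b, the constitutive counterpart of Ppp1r15a (-0.15).

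Downstream, 30 of 35 other ATF4 targets were at least 2-fold higher in cKO and none 2-fold lower, with a median log2 ratio of 1.61. Asns, which encodes asparagine synthetase, stood at 10.9 CPM in WT against 197 CPM in cKO. The highest ratio was that of the cationic amino acid transporter gene Slc7a3 (3 UMIs in WT and 2553 in cKO) and the lowest that of the glutamine transporter gene Slc38a2 (-0.14). These targets were listed with earlier results of these cells known, so the count is no independent evidence of direction.

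Neighbouring programmes were read in the same way. Of 21 listed genes of the unfolded protein response outside the ATF4 branch, 1 was 2-fold higher, Herpud1 (log2 ratio 1.23), a gene of protein degradation at the endoplasmic reticulum that ATF4 also targets. The median of that list was -0.05, with a sign that changed under other scalings (given below), and its lowest gene was Calr, which encodes the chaperone calreticulin (-0.85). Of 19 leucine zipper partners and relatives, 1 was 2-fold higher and 4 were 2-fold lower, down to the granulocyte factor Cebpe (-5.85). The higher one was Xbp1 (1.17), which was listed here and not with the unfolded protein response. Of 19 immediate early genes, 17 were at least 2-fold lower in cKO, with a median of -2.24, from Ier5 (-0.44) to Jun (-3.34), which stood at 1498 CPM in WT against 148 CPM in cKO. Atf3, in both of the last lists and a further known target of ATF4, stood at 10.3 and 1.47 CPM. Of 13 p53 targets, 7 were 2-fold higher, with a median of 1.16, from Trp53inp1 (-0.35) to Zmat3 (3.66).

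**Figure D5:**
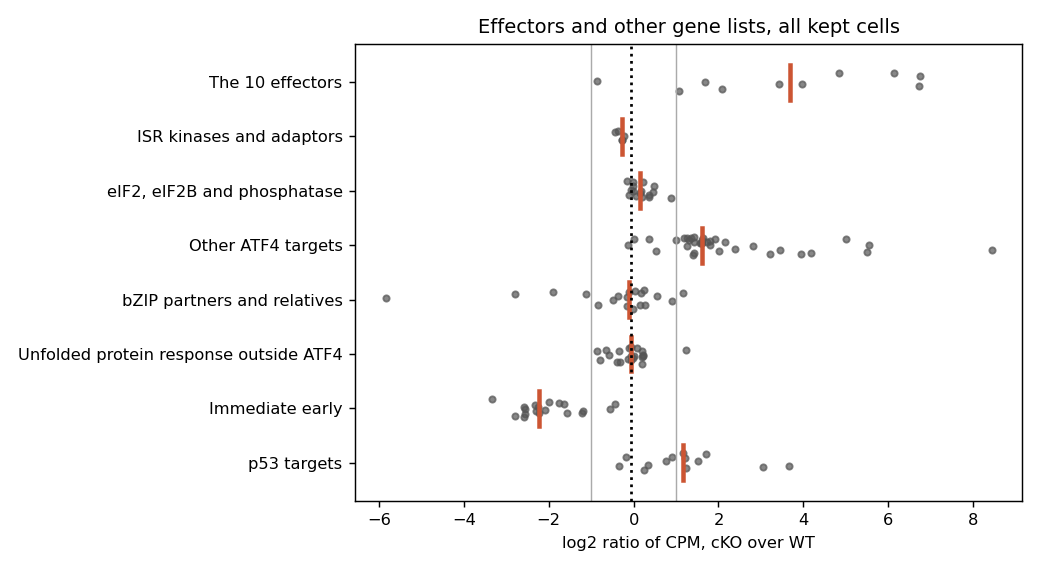
log2 ratio of CPM, cKO over WT (x axis), for each gene that reached 5 CPM in WT or cKO, by list. Red bars are list medians, the dotted line is the median of all 9153 genes (-0.07), and grey lines mark 2-fold; the effectors (3.69) and other ATF4 targets (1.61) lie to the right, and immediate early genes (-2.24) to the left.

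Since Ppp1r15a is also known as an immediate early gene, its cells were set beside those of Jun. In WT, Ppp1r15a was found in 23.5% of cells with a UMI of Jun (22.5 to 24.6) and in 10.0% of cells without one (8.61 to 11.6). In cKO the shares were 14.2% (12.7 to 15.7) and 10.4% (9.67 to 11.2). Trib3 ran the opposite way in cKO, found in 18.5% of cells with Jun (16.9 to 20.3) and in 24.3% of cells without (23.3 to 25.4), while Sesn2 was at 4.05% and 4.29%, within counting error. Atf4 was more frequent in WT cells with Jun, at 13.3% against 9.29%, and less frequent in cKO cells with Jun, at 28.7% (26.8 to 30.7) against 33.6% (32.4 to 34.8). For Atf4 too the order in cKO depended on the gene taken. It was found in 28.9% of cells with Fos and 33.0% without. With Ier2 its shares were 32.1% and 32.6%, and with Egr1 32.7% and 32.4%, both within counting error. In cKO, Ppp1r15a was also more frequent in cells with Fos, at 14.9% (12.9 to 16.9) against 10.7% (10.01 to 11.5), and with Ier2, at 13.1% (11.99 to 14.2) against 10.04% (9.21 to 10.9). With Egr1 its shares were 14.7% (10.9 to 19.2, 306 cells) and 11.2% (10.5 to 11.9), and with Atf3 3.70% (0.0937 to 19.0, 27 cells) and 11.4% (10.7 to 12.1), both within counting error. For Trib3 the order in cKO depended on the gene taken. It was found in 21.6% of cells with Fos and 23.1% without, in 20.9% with Egr1 and 23.0% without, both within counting error, and in 24.1% of cells with Ier2 (22.7 to 25.6) and 22.0% without (20.8 to 23.2). With Asns as the reference gene, Trib3 was found in 27.5% of positive and 21.0% of negative cKO cells, and Ppp1r15a in 11.5% and 11.3%.

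Within each library, cells with many effectors were then compared with cells with none, at equal depth after thinning. In cKO, 1872 cells with at least 3 effectors and 1976 cells with 0 were used, and 2785 genes other than the effectors had 50 CPM or more in either class. Of these, 1399 (50.2%) were higher by any amount in the cells with many effectors, 15 by at least 2-fold (0.539%), and the median log2 ratio was 0.0022. The 10 genes with the highest ratios were Angptl6, Phlda3, Hsd17b1, Cdkn1a, Cyb5r1, Tbpl1, Ccng1, 5430416N02Rik, Bbc3 and Psrc1. Of these, 9 were below 50 CPM in the cells with no effector and entered only through the class where they were high, so nothing is read from their number. Cdkn1a, which encodes the cell cycle inhibitor p21, was at that level in both classes. It stood at 193 CPM in the cells with many effectors and 61.2 CPM in the cells with none, with a log2 ratio of 1.65 (1.44 to 1.87).

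The lists were therefore read over genes with a mean of at least 5 CPM over all thinned cells of the library, a limit added after seeing the data. Of 8685 such genes in cKO, 3969 (45.7%) were higher in the cells with at least 3 effectors, with a median log2 ratio of -0.03. Of the other ATF4 targets 34 of 35 were higher, with a median of 0.78, and of the p53 targets 11 of 13, with a median of 0.93 and values from -0.49 to 1.83 (Phlda3). Immediate early genes were higher in 4 of 17, with a median of -0.29. Over cells in no gate, where 46.6% of genes were higher, the counts were 34 of 35, 11 of 13 and 4 of 17.

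The 5 genes with the lowest ratios were Jchain, Slpi, Dntt, Cd52 and Mcpt8, which include known markers of antibody-secreting cells (Jchain), early lymphoid cells (Dntt) and basophils (Mcpt8). All 5 were below 50 CPM in the cells with many effectors and entered only through the class where they were high, so nothing is read from them. Jchain stood at 13.1 CPM in the cells with many effectors and 1444 CPM in those with none. Before thinning, the cells with at least 3 effectors had a median of 11230.5 UMIs and 1.66% mitochondrial UMIs, and the cells with 0 had 8890 UMIs and 2.07%; the part of these in the ratios was not tested.

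In WT, where at least 3 effectors were found in 69 cells, 3294 cells with at least 1 effector were set beside 4651 with none, and the same limit was then applied in cKO, where 6396 cells had at least 1. Before thinning, the WT cells with at least 1 effector had a median of 3698.5 UMIs and 2.57% mitochondrial UMIs, and those with none 4643 UMIs and 2.45%, an order of depth opposite to that between the cKO classes above, and the part of depth was not tested. In WT, 4907 of 9008 genes (54.5%) were higher by any amount, and in cKO 3921 of 8685 (45.1%). Immediate early genes were higher in 19 of 19 in WT, with a median log2 ratio of 0.57, and in 3 of 17 in cKO, with a median of -0.21. Other ATF4 targets were higher in 11 of 27 in WT, with a median of -0.07, and in 35 of 35 in cKO, with a median of 0.63. Of the p53 targets, 5 of 10 were higher in WT and 10 of 13 in cKO. The minimum of 5 CPM was applied within each library, so the genes counted in each list differ between WT and cKO. Ppp1r15a, the effector with the highest share of WT cells, was then left out of the count. Immediate early genes were then higher in 18 of 19 in WT, with a median of 0.23, and other ATF4 targets in 12 of 27, beside 54% of all genes. In cKO, immediate early genes were then higher in 1 of 17, with a median of -0.39. Other ATF4 targets were higher in 35 of 35 in cKO, with a median of 0.65, beside 44.8% of all genes. The difference between the libraries was not tested. Among WT genes with 50 CPM or more in either class, the lowest ratios were those of the neutrophil granule genes Lcn2, S100a8, S100a9, Wfdc21 and Ngp, from -2.23 (Lcn2) to -2.05 (Ngp). Lcn2 and Wfdc21 entered only through the cells with none.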

How the data were processed

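The authors made the deposited UMI counts per gene and cell barcode with Cell Ranger 6.0.0 on the mouse genome GRCm38 (mm10), per the labels and the methods of the study. The labels and the methods name different versions of the 3′ reagent kit. Strand use in counting is not given in the sources used here. Atf5, Ppp1r15a, Ddit3 and Cebpg overlap genes on the opposite strand, and Sesn2, Ddit3 and Cebpg overlap genes on the same strand in GENCODE M21, which was the source of coordinates, so their counts are less certain. Promoters came from RefSeq (GRCm38.p6).

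The limits of the study were applied: over 200 genes, an upper limit of 4000 genes in WT and 4500 in cKO, mitochondrial UMIs below 10% in WT and 5% in cKO, and hemoglobin UMIs below 5%. Of 8869 WT and 9260 cKO barcodes, 8763 and 9151 passed. Doublets were scored against simulated ones among 50 neighbours in 20 components of 1500 genes and removed at 0.8% per 1000 barcodes, which took 615 WT and 674 cKO cells (7.09% and 7.41% of barcodes marked). Cells were thinned without replacement to 2000 UMIs with a fixed seed. Phases were called in scanpy 1.11.5 with the lists of Seurat 5.3.0.

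CPM are of UMIs summed over cells, ratios used 0.5 prior counts, and exact intervals (Poisson, conditional binomial, Clopper-Pearson) came from scipy 1.17.1. With 1 library per group no test was possible. The functions were tested on simulated data. The 10 genes, gene lists and markers were chosen with earlier results of these data known. The named genes were the 10 effectors, the highest and lowest gene of each list, the eIF2 kinases, Asns, Atf3, Jun and Trmt6, and the 10 highest and 5 lowest genes between cells with many and few effectors. The genes of that comparison in WT, those taken by the mean over all cells, Mpo, Kit and Ly6a were named after their values were seen. The symbols Gcn1, Dele1, Mars1 and Selenok were not found in the gene list. Alternatives used the TMM factor of edgeR 4.0.16 in R 4.3.3, median-of-ratios factors in numpy 2.4.6, other totals, cell limits and thinning depths.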

Additional observations from a re-analysis of the deposited data

How the results depend on the processing

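Under 7 other scalings and cell filters, each effector kept its direction in pooled CPM, and the number at least 2-fold higher in cKO was 9, or 8 when each cell was scaled first and over G1 cells. On thinned cells Cebpg was also below 2-fold (0.94). The TMM factor moved the median of all genes by 0.10 on the log2 scale and the share of higher genes from 43.0% to 53.5%; the log2 ratio of Ppp1r15a was then -0.77, and it ranged over these settings to -1.21 (G1 cells), past 2-fold also with each cell scaled first (-1.08). At a minimum of 1 CPM the number was 9, with 4.60% of genes 2-fold higher, and at 20 CPM it was 7, with 2.51%, because Chac1 and Stc2 lay below that level.

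Depth limits the shares of cells. The excess of cKO over WT cells with at least 3 effectors was 21.5 percentage points at 2000 UMIs, 5.76 at 1000 UMIs, 48.7 at 4000 UMIs (4278 WT cells remained) and 68.6 without thinning. Without Ppp1r15a, chosen after seeing the data, it was 19.3. For Ppp1r15a the difference in the share of cells, cKO minus WT, was -9.40 percentage points at 2000 UMIs and 5.15 without thinning. Requiring 2 or 4 markers for a gate gave higher cKO levels in 91.7% (6 gates, 60 values) and 85.0% (2 gates, 20 values) of gene and gate values, against 88.3% (6 gates, 60 values). All genes were not counted within gates, so these shares have no background. Pairs above the product of shares in cKO numbered 38 of 40 at 1000 UMIs and 43 of 45 at 4000 UMIs. List medians under other scalings, the cells in no gate and the cells without Jchain or Slpi (42 of 44 pairs above the product) were also added after seeing the data. No list with a median beyond 2-fold changed direction. The median of the unfolded protein response list did, from -0.05 to 0.05 (TMM factor), 0.11 (each cell scaled first) and 0.28 (G1 cells). The medians of all genes in these settings were 0.03, -0.09 and -0.12. With genes at a mean of 50 CPM or more, also chosen after seeing the data, cKO cells with at least 3 effectors were higher in 20 of 20 other ATF4 targets, 3 of 3 p53 targets and 1 of 7 immediate early genes, against 1307 of all 2607 genes (50.1%). No paired analysis was possible because each group had 1 library.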

Other observations

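Among cKO cells, over genes with a mean of at least 5 CPM, leucine zipper genes outside the effectors were higher in 10 of 16 in cells with at least 3 effectors than in cells with none, with a median log2 ratio of 0.12. The list of eIF2, eIF2B, phosphatase and further initiation factor genes was higher in 9 of 16, with a median of 0.02, and the unfolded protein response genes outside the ATF4 branch in 11 of 20, with a median of 0.11. Of all 8685 genes, 45.7% were higher.

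When genes were taken by a mean of at least 50 CPM over all cKO cells, the 10 with the highest ratios were Hsd17b1, Cdkn1a, Cyb5r1, 5430416N02Rik, Ifrd1, Cox6a2, Mthfd2, Acot2, Snhg12 and Pla2g4a, all named after their values were seen. Of these, Hsd17b1, Cyb5r1, 5430416N02Rik, Ifrd1, Acot2 and Snhg12 were below 50 CPM in the cells with no effector. They reached the mean through the other cells, so nothing is read from their place. Mthfd2, which encodes an enzyme of mitochondrial folate metabolism, stood at 258 CPM in the cells with at least 3 effectors and 122 CPM in those with none. In WT, the gene with the highest ratio at that minimum, between cells with at least 1 effector and cells with none, was Hes1, a target of Notch signalling, at 73.0 and 34.7 CPM. This place depended on Ppp1r15a. With Ppp1r15a left out of the count, the highest log2 ratio was that of Mcpt8 (0.92), followed by Hes1 (0.70).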
